A study of Mus musculus with 6 samples.

Results

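The 10 genes described here encode acute-phase plasma proteins and secreted defence proteins. They are Orm1, Saa3, Hp, the fibrinogen chain genes Fga, Fgb and Fgg, Lcn2, Sftpd, Pigr and C3, and they are 10 of the 34745 genes in the deposited table. The set was chosen by FPKM levels already seen: Orm1, Lcn2 and Sftpd stood highest in the islets labelled KO DNMT3A. The levels of all 10 genes in that group are therefore given as a description, and p-values for single genes of the set are given only for KO against WT. Islets were isolated from 8-week-old C57BL/6 mice and their poly-A RNA was sequenced in 6 libraries that form 3 groups of 2. The first group, called KO+DNMT3A here, is Beta RapKO with Dnmt3a expression, written LvDnmt3a in the design. The second, KO, is Beta RapKO, and the third, WT, is the wild type. GFP stands in the column names of the KO and WT libraries, and its meaning is not given. The labels also do not give the driver that removes Rptor, the gene of the mTORC1 subunit Raptor, in these mice, or say whether islets of several mice were pooled. No label ties the libraries to separate animals, so a p-value here reflects only how these libraries scatter, which may be technical scatter. Islets hold several cell types, and in such bulk RNA fewer cells of a type and less RNA per cell cannot be told apart.

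The acute-phase response is the change in secreted proteins that follows infection or tissue injury. Cytokines of the IL-6 and IL-1 families act on liver and epithelial cells through the transcription factors STAT3, C/EBP beta and delta, and NF-kB, and the target genes include serum amyloid A, orosomucoid, haptoglobin, the fibrinogen chains and complement C3. Epithelia at mucosal surfaces and ducts secrete a related set of defence proteins, among them lipocalin 2 and surfactant protein D, and carry antibodies to the lumen with the polymeric immunoglobulin receptor.

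The values are the authors' FPKM, fragments scaled to transcript length and library depth, and no counts accompany them. The steps of low FPKM values, read from genes with 1 annotated transcript, correspond to about 1919971 and 1117663 fragments assigned to genes in the KO+DNMT3A libraries, 1425781 and 780235 in the KO libraries, and 244791 and 973760 in the WT libraries (replicate 1 and then 2 each). On a transcript of 1 kb, 1 fragment is then worth 0.521 and 0.895 FPKM in KO+DNMT3A islets, 0.701 and 1.28 FPKM in KO islets, and 4.09 and 1.03 FPKM in WT islets. A low gene can therefore be missed most easily in WT replicate 1. WT replicate 1 and KO replicate 2 also stood apart in beta cell RNA, with Ins1 at 647 and 416 FPKM, against 65360 to 119077 FPKM in the other 4 libraries. Rptor was 0.714 and 1.93 FPKM in KO+DNMT3A islets, 0.378 and 1.51 FPKM in KO islets, and 0.800 and 1.06 FPKM in WT islets. Dnmt3a was 3.62 and 3.80 FPKM in KO+DNMT3A islets, 3.19 and 2.4996 FPKM in KO islets, and 2.94 and 4.43 FPKM in WT islets. Rptor overlapped between KO and WT. Dnmt3a was higher in both KO+DNMT3A libraries than in both KO libraries and overlapped with WT. Gapdh, at 0.743 to 3.79 FPKM, and Ppia, at 0 to 1.03 FPKM, were low for genes that every cell uses and that have many near-identical copies. For that reason a gene is said to be listed at 0, and genes with close copies, such as Orm1 beside Orm2 and Orm3 or Saa3 beside Saa1 and Saa2, are uncertain in level.

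Positions are from GENCODE M21 (GRCm38/mm10). Orm1 is on chromosome 4 from 63344560 to 63348163, plus strand, in 6 exons. Saa3 is on chromosome 7 from 46711998 to 46715700, minus strand, and Hp on chromosome 8 from 109575128 to 109579172, minus strand. The fibrinogen genes are neighbours on chromosome 3, with Fgg from 83007724 to 83015049 and Fga from 83026076 to 83033627 on the plus strand and Fgb from 83040141 to 83049863 on the minus strand. Lcn2 is on chromosome 2 from 32384633 to 32388252, minus strand, and Sftpd on chromosome 14 from 41172214 to 41185149, minus strand. Pigr is on chromosome 1 from 130826684 to 130852249, plus strand, and C3 on chromosome 17 from 57203970 to 57228136, minus strand. All 10 are protein-coding.

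RefSeq's promoter table (GRCm38.p6) held 7 of the 10 genes: Saa3, Fga, Fgb, Fgg, Lcn2, Pigr and C3. The 250 bases before each RefSeq start were searched on both strands for letters typical of the factors of the acute-phase response: TTGCNNAA for C/EBP, TTCNNNGAA and CTGGGAA for STAT3, and GGGA and CC separated by 4 bases for NF-kB. RefSeq's start lies inside the GENCODE gene for Saa3, Fga and Lcn2, so that 24, 77 and all 250 bases of their windows fall within that gene. Annotated exons cover 24, 77 and 197 bases of these windows. The sequence of Saa3 is shown because it had the highest level of the set, and those of Fgb and C3 because they held the most matches. They are written 5′ to 3′ on the strand of the gene, with the matches in capitals.
Saa3, chr7:46715677-46715926, minus strand: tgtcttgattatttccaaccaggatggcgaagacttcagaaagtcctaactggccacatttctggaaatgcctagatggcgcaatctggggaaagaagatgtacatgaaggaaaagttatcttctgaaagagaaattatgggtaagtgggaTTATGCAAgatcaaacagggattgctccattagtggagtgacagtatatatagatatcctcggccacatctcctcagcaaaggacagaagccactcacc
Fgb, chr3:83049864-83050113, minus strand: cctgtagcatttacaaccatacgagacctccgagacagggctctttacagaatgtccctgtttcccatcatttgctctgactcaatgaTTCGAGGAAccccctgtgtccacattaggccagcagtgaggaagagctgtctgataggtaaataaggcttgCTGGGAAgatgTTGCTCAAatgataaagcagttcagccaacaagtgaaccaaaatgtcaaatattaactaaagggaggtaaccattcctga
C3, chr17:57228137-57228386, minus strand: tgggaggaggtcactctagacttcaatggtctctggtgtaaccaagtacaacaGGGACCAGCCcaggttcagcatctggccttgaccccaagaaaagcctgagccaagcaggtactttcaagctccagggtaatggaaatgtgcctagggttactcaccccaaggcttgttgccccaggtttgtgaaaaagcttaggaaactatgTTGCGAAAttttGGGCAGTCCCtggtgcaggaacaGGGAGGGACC
The C/EBP letters stood 99 to 92 bases before the start of Saa3, 216 to 209 before that of Lcn2, 80 to 73 before that of Fgb and 45 to 38 before that of C3. They were found in 5 of the 7 promoters, Fga included, and in 9.56% of the 32851 promoters of the table. In Fgb the STAT3 letters CTGGGAA lay 91 to 85 bases before the start, just upstream of the C/EBP match, and TTCNNNGAA lay 162 to 154 bases before it. Fgg held CTGGGAA 13 to 7 bases before its start. CTGGGAA was found in 2 of the 7 promoters and in 9.1% of all, and TTCNNNGAA in 2 of the 7, Fga and Fgb, and in 7.02% of all. The NF-kB letters occurred in Pigr and 3 times in C3, that is in 2 of the 7 promoters against 17.6% of all. Each of the 7 held at least 1 of the motifs, against 36.5% of all promoters. A match is a run of letters in this window, and binding was not measured.

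**Figure D1:**
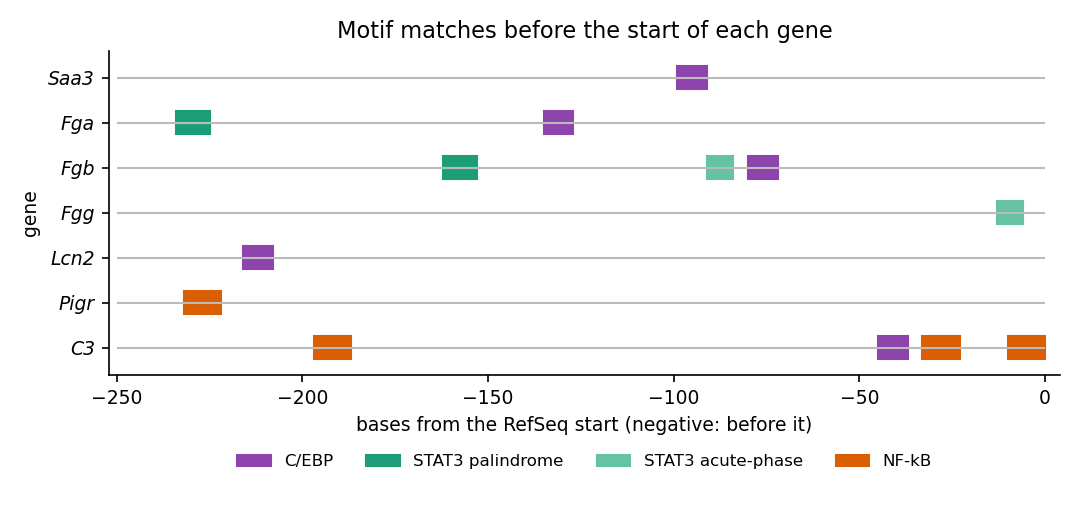
Matches to the C/EBP, STAT3 and NF-kB letters in the 250 bases before the RefSeq start of 7 genes (x axis: bases from the start, y axis: gene). Each coloured box is 1 match on either strand. A C/EBP match is present in 5 of the 7 genes and C3 carries 3 NF-kB matches.

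Orm1 encodes orosomucoid, or alpha-1-acid glycoprotein, an acute-phase lipocalin of plasma. It was 13.4 and 11.5 FPKM in the KO+DNMT3A libraries and was listed at 0 in both KO and both WT libraries. Only the KO+DNMT3A islets thus gave Orm1 signal among these 6 libraries. Its annotated transcript has 775 bases and the values correspond to 20 and 10 fragments. At the inferred depths 1 Orm1 fragment would be worth 0.905 and 1.65 FPKM in KO islets, and 5.27 and 1.33 FPKM in WT islets. The 0 of WT replicate 1 therefore says little about Orm1, whereas in the other 3 libraries a level like that of KO+DNMT3A would have given several fragments. Orm2 and Orm3, the closest copies of Orm1, were listed at 0 in all 6 libraries.

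Saa3 encodes serum amyloid A3, the form of this apolipoprotein that is made mainly outside the liver in mice. It had the highest level of the 10 genes in every library, at 189 and 199 FPKM in KO+DNMT3A islets, 34.3 and 67.6 FPKM in KO islets, and 92.3 and 75.4 FPKM in WT islets. The 3 groups did not overlap, with KO+DNMT3A highest and KO lowest. The mean of KO+DNMT3A, 194 ± 6.77 FPKM, was 3.81 times that of KO, 50.9 ± 23.5 FPKM, and 2.31 times that of WT, 83.9 ± 11.95 FPKM (SD, n = 2 each). Saa1, an acute-phase serum amyloid A of plasma, was 1.72 and 2.96 FPKM in KO+DNMT3A and was listed at 0 in the KO and WT libraries. Saa2 and Saa4 were listed at 0 throughout, and so was Hp, which encodes the haemoglobin-binding protein haptoglobin.

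Fga, Fgb and Fgg encode the alpha, beta and gamma chains of fibrinogen, the clot-forming plasma protein that is assembled from pairs of all of them. Fgb was 5.88 and 4.70 FPKM in KO+DNMT3A islets, 2.94 and 4.04 FPKM in KO islets, and 0 and 2.97 FPKM in WT islets. It has a single annotated transcript of 3810 bases, on which these values are 43 and 20 fragments in KO+DNMT3A, 16 and 12 in KO, and 0 and 11 in WT. The KO+DNMT3A libraries were the highest, by a small margin over KO replicate 2. Fgg was 14.2 and 4.50 FPKM in KO+DNMT3A islets, 2.35 and 0 FPKM in KO islets, and 0 and 10.8 FPKM in WT islets, so that WT replicate 2 lay between the KO+DNMT3A libraries. Fga was the lowest of the chains, at 1.85 and 0.850 FPKM in KO+DNMT3A islets, 0.333 and 0 FPKM in KO islets, and 0 and 0.975 FPKM in WT islets. Fga and Fgg were listed at 0 in the same pair of libraries, KO replicate 2 and WT replicate 1, and their log2 values had a Pearson r of 0.968 over the 6 libraries. That pair had the lowest depth, and 1 fragment in WT replicate 1 would be worth 1.58 FPKM for Fga and 2.35 FPKM for Fgg. On its longest transcript Fga had about 9.2 and 2.5 fragments in KO+DNMT3A, 1.2 and 0 in KO, and 0 and 2.5 in WT. All chains had a higher mean in KO+DNMT3A than in KO, by 0.99 (Fga), 0.49 (Fgb) and 2.32 (Fgg) on the log2 scale of FPKM plus 1. Against WT the differences were 0.71, 1.65 and 1.41 in the same order, and without WT replicate 1 that of Fgg was -0.36.

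Lcn2 encodes lipocalin 2, which binds bacterial siderophores and so withholds iron. It was 66.01 and 36.4 FPKM in KO+DNMT3A islets, 14.6 and 1.32 FPKM in KO islets, and 20.1 and 13.5 FPKM in WT islets. Both KO+DNMT3A libraries lay above the other 4, and the lowest value was that of KO replicate 2. The mean of KO+DNMT3A, 51.2 ± 20.9 FPKM, was 6.45 times that of KO, 7.93 ± 9.36 FPKM, and 3.04 times that of WT, 16.8 ± 4.70 FPKM (SD, n = 2 each). Sftpd encodes surfactant protein D, a collectin that binds sugars on microbes. It was 15.3 and 8.77 FPKM in KO+DNMT3A islets, 2.64 and 0 FPKM in KO islets, and 0 and 1.55 FPKM in WT islets, again with both KO+DNMT3A libraries above the other 4. The KO+DNMT3A mean was 12.04 ± 4.63 FPKM, against 1.32 ± 1.87 FPKM in KO islets and 0.774 ± 1.095 FPKM in WT islets.

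Pigr encodes the polymeric immunoglobulin receptor, which carries IgA across epithelial cells. It was 12.3 and 10.6 FPKM in KO+DNMT3A islets, 5.63 and 3.43 FPKM in KO islets, and 6.38 and 6.87 FPKM in WT islets. The 3 groups did not overlap, in the same order as for Saa3, and the spread within groups was small, with a mean of 11.4 ± 1.23 FPKM for KO+DNMT3A, against 4.53 ± 1.56 FPKM in KO islets and 6.62 ± 0.348 FPKM in WT islets (SD, n = 2 each). C3, the central component of complement, was 5.32 and 3.15 FPKM in KO+DNMT3A islets, 1.98 and 0.677 FPKM in KO islets, and 4.32 and 1.63 FPKM in WT islets. C3 in KO+DNMT3A lay above KO and overlapped with WT, where replicate 1 was between the KO+DNMT3A libraries. Its difference from WT was 0.45 on the log2 scale and -0.05 without WT replicate 2.

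**Figure D2:**
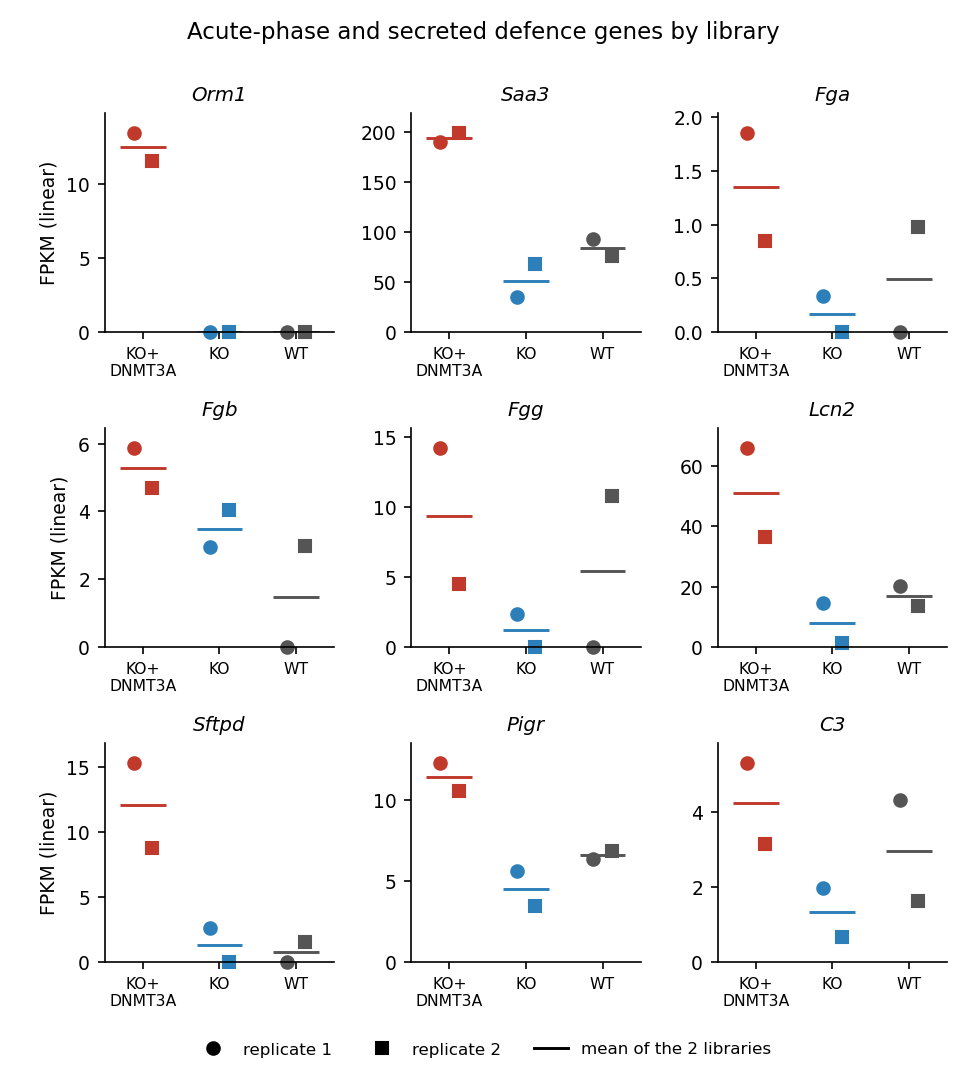
FPKM of 9 genes in each library (y axis: FPKM, linear, from 0, a separate scale per gene; x axis: group). Points are libraries, circles for replicate 1 and squares for replicate 2, and lines are group means. In 6 of the genes, Orm1, Saa3, Fgb, Lcn2, Sftpd and Pigr, both KO+DNMT3A libraries lie above the other 4.

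The 9 genes with any signal all had a higher mean in KO+DNMT3A than in KO, by a median of 1.99 on the log2 scale of FPKM plus 1 (0.49 for Fgb to 3.06 for Lcn2, with Orm1 ranked above them because it is listed at 0 in KO). The median of the 13233 genes that had at least 1 FPKM in at least 2 libraries was 0.19 in that comparison, and -0.01 after the libraries were set to a common median. Without that scaling, 68.2% of those genes were higher in KO+DNMT3A than in KO, and 64.8% were higher than in WT. Of the 10 genes 8 passed this filter, all but Fga and Hp; Orm1 passed it through the KO+DNMT3A libraries alone. In these 8 the KO+DNMT3A libraries lay above both KO libraries, which was so for 17.2% of all genes tested. Against WT, 6 of the 8 did not overlap and were higher in KO+DNMT3A, against 19.2% of all genes, and the median difference of the 9 genes was 1.41. The same 6 lay above all 4 other libraries, as did 7.6% of all genes. These counts follow from how the set was chosen, since Orm1, Lcn2 and Sftpd were picked for this pattern. Both comparisons use the same KO+DNMT3A libraries. The limma test called 0 of 13233 genes in KO+DNMT3A against KO (0%) and 0 in KO+DNMT3A against WT (0%). With both insulin-poor libraries left out, the difference between KO+DNMT3A and the remaining KO library was 1.69 for Lcn2, 1.79 for Sftpd, 2.46 for Saa3 and 0.91 for Pigr, and all 9 genes were still higher in KO+DNMT3A.

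**Figure D3:**
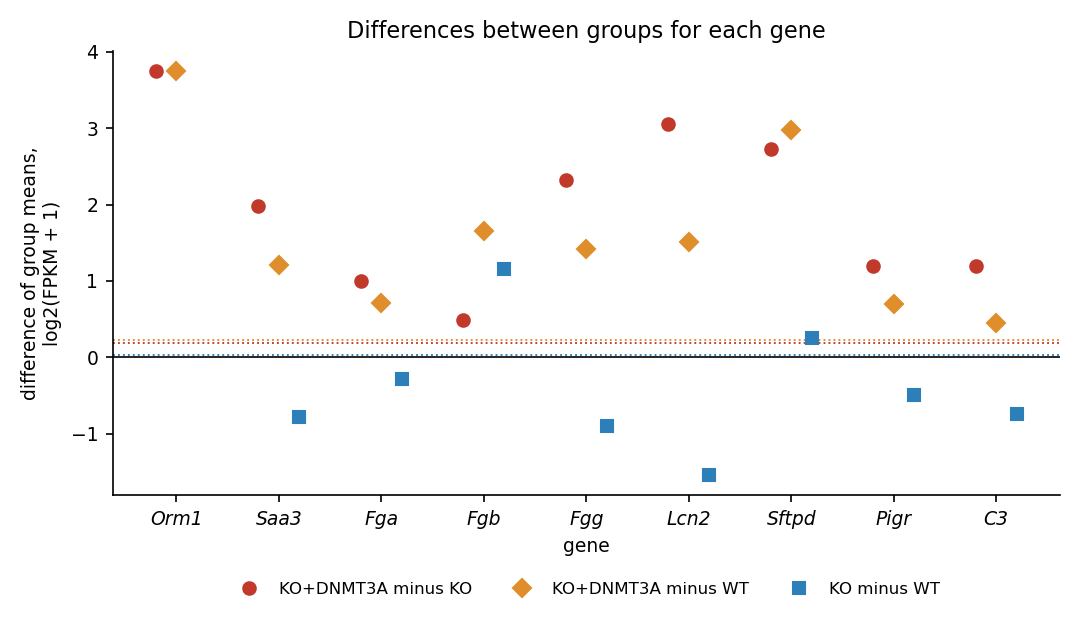
Differences of group means of log2(FPKM + 1) (y axis) for 9 genes (x axis) in KO+DNMT3A minus KO, KO+DNMT3A minus WT and KO minus WT. Dotted lines are the medians of all 13233 genes tested, in the colour of the comparison, and the height of Orm1 depends on the 1 FPKM added, since it is listed at 0 in KO and WT. All 9 genes lie above 0 in both comparisons of KO+DNMT3A, as do 68.2% (against KO) and 64.8% (against WT) of all genes tested. In KO minus WT 6 of 8 lie below 0, where 52.4% of all genes tested lie above it.

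KO was compared with WT to ask whether levels of these genes differ between the libraries labelled Beta RapKO and wild type. The choice of genes did not use that comparison. None of the genes passed the test. Of the 8 genes with signal in either group 6 were lower in KO and 2, Sftpd and Fgb, were higher, with a median log2 difference of -0.62, where the median of all genes was 0.03. Of all genes tested, 52.4% were higher in KO. Lcn2 averaged 7.93 FPKM in KO and 16.8 FPKM in WT islets, a log2 difference of -1.545 (SE 0.91, limma unadjusted p = 0.128, adjusted p = 1). Saa3 averaged 50.9 FPKM in KO and 83.9 FPKM in WT (log2 difference -0.78, SE 0.60, limma adjusted p = 1). Pigr averaged 4.53 FPKM in KO and 6.62 FPKM in WT (-0.49, SE 0.52, limma adjusted p = 1). C3 averaged 1.33 FPKM in KO and 2.97 FPKM in WT (-0.74, SE 0.61, limma adjusted p = 1). Fgb averaged 3.49 FPKM in KO and 1.48 FPKM in WT (1.16, SE 0.71, limma adjusted p = 1), where WT replicate 1 was at 0. The standard errors of Fgg, 1.18, and of Sftpd, 0.79, were larger than their log2 differences of -0.91 and 0.26. Saa3 and Pigr were the only 2 of the 8 filtered genes whose KO libraries both lay below both WT libraries, which 10.5% of all genes did; 0 lay above without overlap, against 9.36% of all genes. By limma 0 of 13233 genes were called in KO against WT (0%), and 240 had an unadjusted p under 0.05. With WT replicate 1 and KO replicate 2 left out, which leaves 1 library a group, the differences of Lcn2 (0.10) and C3 (0.18) were above 0, Fgb was at -0.01, and Saa3 (-1.11) and Pigr (-0.25) were lower in KO.

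The other acute-phase proteins were looked at through a list of 24 genes, 9 of which were listed at 0 in all libraries and 10 of which passed the filter. Of the 10, 9 had a higher mean in KO+DNMT3A than in KO, against 68.2% of all genes, and 6 were higher without overlap, against 17.2%. Saa1 is 1 of those 6 and passed the filter through the KO+DNMT3A libraries alone, so its direction was fixed by the filter. The median difference was 1.26, against 0.19 for all genes, and 0 passed the test in either direction. Lrg1, which encodes leucine-rich alpha-2-glycoprotein 1, was 170.0 and 86.1 FPKM in KO+DNMT3A islets, 36.3 and 5.69 FPKM in KO islets, and 6.05 and 18.2 FPKM in WT islets. Its lowest KO+DNMT3A value was above the highest of the other 4 libraries. Serpina3n, a protease inhibitor gene, was 12.6 and 11.7 FPKM in KO+DNMT3A islets, 7.13 and 1.86 FPKM in KO islets, and 3.96 and 5.97 FPKM in WT islets. Hamp, the gene of the iron-regulating hormone hepcidin, was 5.08 and 6.55 FPKM in KO+DNMT3A islets, 3.42 and 0 FPKM in KO islets, and listed at 0 in both WT libraries. The ceruloplasmin gene Cp was 2.99 and 2.20 FPKM in KO+DNMT3A islets, 1.01 and 0.438 FPKM in KO islets, and 9.78 and 0.422 FPKM in WT islets, so that it was high in WT replicate 1. Against WT, 5 of the 10 were higher without overlap (19.2% of all genes), again with Saa1 counted, and among them was Steap4, a metalloreductase gene, at 22.9 and 9.64 FPKM against 0 and 5.53 FPKM. In KO against WT 4 of the 10 had a higher and 5 a lower mean, where 52.4% of all genes were higher. Of the 10, 0 lay above or below without overlap, against 9.36% and 10.5% of all genes.

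Among the 20 other secreted defence genes of mucosa and epithelia 7 passed the filter, and 0 passed the test in any comparison. Reg3b, Wfdc2, Reg1, Dmbt1, Ltf, Reg3g and Jchain did not pass the filter and were above 0 only in KO+DNMT3A replicate 1. Reg3b was 13.3 FPKM and Wfdc2 15.6 FPKM in that library. In KO+DNMT3A against KO 4 of the 7 were higher without overlap and 1 was lower, against 17.2% and 5.43% of all genes, with a median difference of 1.24, against 0.19 for all genes. Slpi, the secretory leukocyte protease inhibitor gene, was 19.8 and 13.5 FPKM in KO+DNMT3A islets, 4.24 and 0 FPKM in KO islets, and 0 and 4.97 FPKM in WT islets. The mucin gene Muc1 was 18.2 and 3.33 FPKM in KO+DNMT3A islets, 0.782 and 1.91 FPKM in KO islets, and 0 and 0.764 FPKM in WT islets. Defb1, a beta-defensin gene, was 41.8 and 31.8 FPKM in KO+DNMT3A islets, 22.5 and 11.8 FPKM in KO islets, and 9.37 and 34.2 FPKM in WT islets. The lysozyme gene Lyz2, which macrophages express strongly, was the lower one, at 105 and 50.2 FPKM in KO+DNMT3A islets, 169 and 154 FPKM in KO islets, and 239 and 234 FPKM in WT islets. Chil1, which encodes a chitinase-like protein, was 7.32 and 2.39 FPKM in KO+DNMT3A, against 0 and 0.366 FPKM in WT islets, with 3.37 and 0 FPKM in KO. Against WT 3 of the 7 were higher without overlap and 1 lower (19.2% and 7.87% of all genes). In KO against WT 1 was higher and 1 lower (9.36% and 10.5%).

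The complement genes other than C3 were split. Of the 24 genes found, 12 passed the filter. In KO+DNMT3A against KO 6 had a higher and 6 a lower mean, where 68.2% of all genes were higher. Without overlap 1 was higher and 2 were lower, against 17.2% and 5.43% of all genes, and 0 passed the test. The lower ones were C1qb and C1qc, genes of C1q, the recognition molecule of the classical pathway that macrophages make. C1qb was 21.1 and 23.0 FPKM in KO+DNMT3A islets, 83.1 and 60.1 FPKM in KO islets, and 93.9 and 70.8 FPKM in WT islets. C1qc was 3.88 and 4.58 FPKM in KO+DNMT3A islets, 19.3 and 10.1 FPKM in KO islets, and 26.6 and 10.04 FPKM in WT islets. C1qa, also a gene of C1q, overlapped in every comparison. It was 63.1 and 46.5 FPKM in KO+DNMT3A islets, 146 and 32.0 FPKM in KO islets, and 55.0 and 77.0 FPKM in WT islets. The higher one was C1ra, a C1 protease gene, at 6.29 and 2.70 FPKM in KO+DNMT3A, against 1.41 and 1.29 FPKM in KO. Cfb, which encodes factor B, the partner of C3 in the alternative pathway, was 130 and 28.1 FPKM in KO+DNMT3A islets, 34.9 and 0 FPKM in KO islets, and 0 and 15.0 FPKM in WT islets. Its KO+DNMT3A libraries overlapped with KO and lay above WT.

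Of 37 genes of IL-6, IL-1 and NF-kB signalling 33 passed the filter. In KO+DNMT3A against KO 13 were higher without overlap and 2 lower, against 17.2% and 5.43% of all genes, the median difference was 0.52, and 0 passed the test. Nfkb2, an NF-kB subunit gene, was 14.2 and 12.2 FPKM in KO+DNMT3A islets, 6.63 and 1.89 FPKM in KO islets, and 7.24 and 7.59 FPKM in WT islets. Bcl3, which encodes a nuclear cofactor of NF-kB, was 15.3 and 28.6 FPKM in KO+DNMT3A islets, 11.8 and 6.35 FPKM in KO islets, and 3.37 and 9.61 FPKM in WT islets. Socs3, the feedback inhibitor of IL-6 signalling, was 21.1 and 20.1 FPKM in KO+DNMT3A islets, 16.2 and 4.68 FPKM in KO islets, and 6.21 and 8.12 FPKM in WT islets. For these genes both KO+DNMT3A libraries were above the other 4. The same held for Cebpd, the gene of C/EBP delta, at 18.5 and 37.9 FPKM in KO+DNMT3A islets, 17.8 and 7.60 FPKM in KO islets, and 6.92 and 9.57 FPKM in WT islets, where KO replicate 1 came within 1 FPKM, and for Nfkbiz, another NF-kB cofactor gene, at 15.0 and 13.6 FPKM in KO+DNMT3A islets, 8.22 and 4.65 FPKM in KO islets, and 3.42 and 5.73 FPKM in WT islets. The chemokine gene Ccl2 went the other way, at 4.09 and 10.8 FPKM in KO+DNMT3A islets, 13.2 and 26.8 FPKM in KO islets, and 30.0 and 15.1 FPKM in WT islets. The cytokine gene Il6 itself was low, at 1.66 and 0.657 FPKM in KO+DNMT3A islets, 0 and 1.88 FPKM in KO islets, and 0 in both WT libraries. Against WT, 12 of the 33 were higher without overlap and 2 lower (19.2% and 7.87% of all genes), and in KO against WT 2 were higher and 6 lower (9.36% and 10.5%), among them Nfkb2. Rela, the gene of the main NF-kB subunit, had its KO libraries, at 14.5 and 9.91 FPKM, above those of WT, at 4.51 and 8.32 FPKM.

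**Figure D4:**
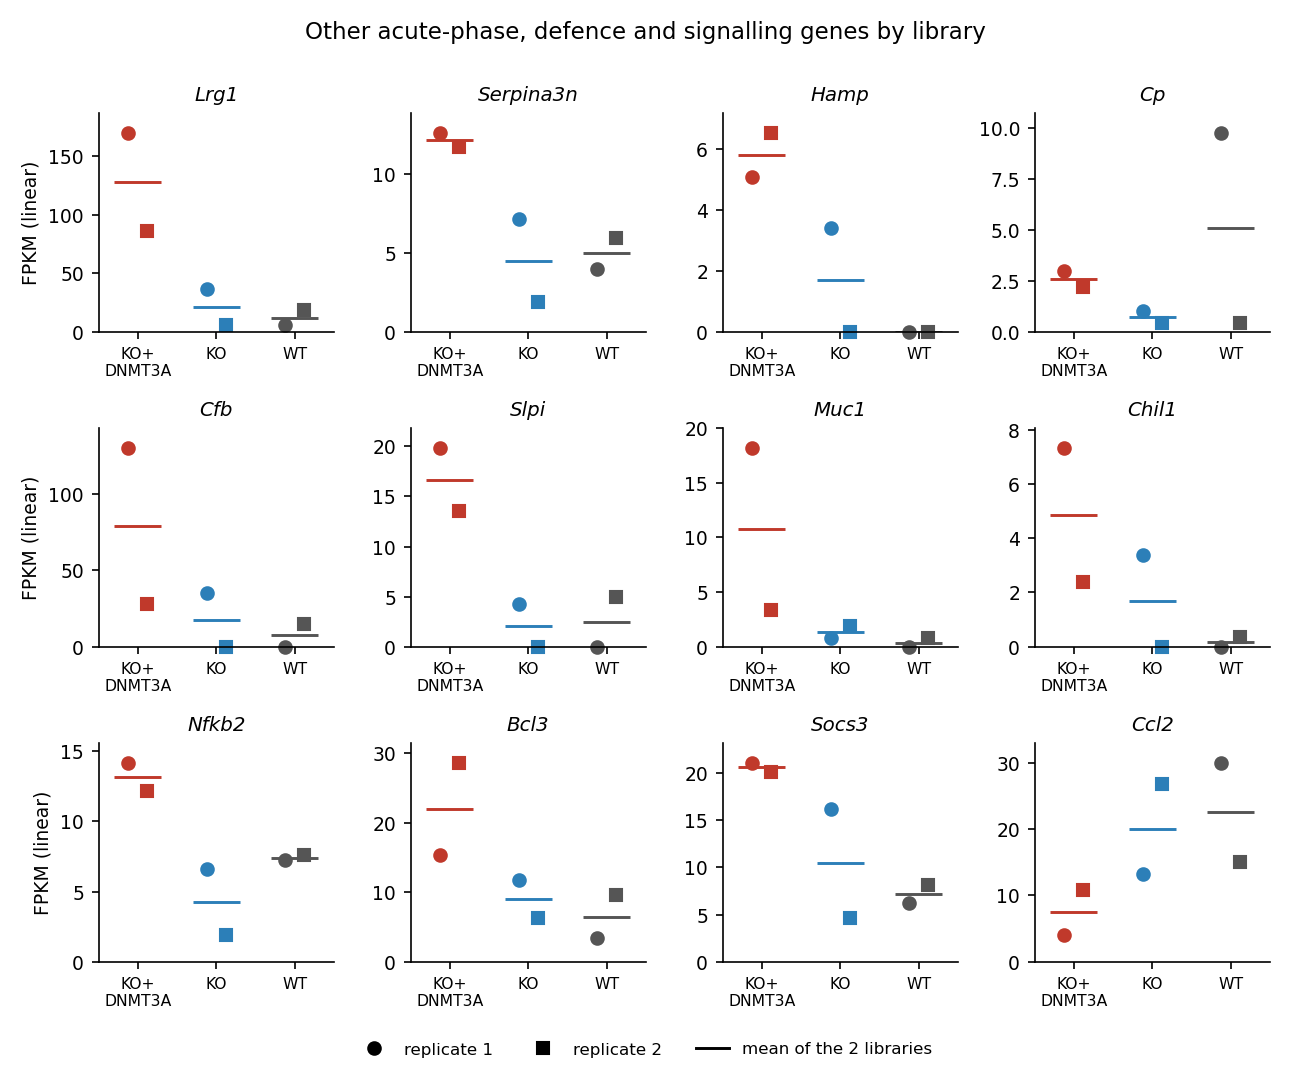
FPKM in each library of 12 genes outside the set: acute-phase genes in the top row, defence and complement genes in the middle row, and signalling genes in the bottom row (y axis: FPKM, linear, from 0, a separate scale per gene; x axis: group). Circles are replicate 1, squares replicate 2, and lines group means. Lrg1, Serpina3n, Hamp, Slpi, Muc1, Nfkb2, Bcl3 and Socs3 are highest in both KO+DNMT3A libraries, and Ccl2 is lowest there.

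Of 12 genes of receptors for these proteins 6 passed the filter. Lrp2, which encodes megalin, a receptor that takes up lipocalin 2, Cd163, the receptor gene for haptoglobin bound to haemoglobin, and the complement receptor gene Cr2 were listed at 0 in all libraries. Slc22a17, the other lipocalin 2 receptor gene, was 11.4 and 44.5 FPKM in KO+DNMT3A islets, 16.5 and 39.1 FPKM in KO islets, and 21.4 and 34.9 FPKM in WT islets, and the groups overlapped. C3ar1, the gene of the receptor for the C3a fragment, was 1.45 and 2.70 FPKM in KO+DNMT3A islets, 3.91 and 2.68 FPKM in KO islets, and 10.4 and 5.25 FPKM in WT islets. Icam1, the gene of an adhesion molecule that binds fibrinogen, was 11.5 and 11.3 FPKM in KO+DNMT3A islets, 9.66 and 5.55 FPKM in KO islets, and 4.83 and 7.68 FPKM in WT islets. It was the 1 receptor gene of the 6 that lay higher without overlap in KO+DNMT3A against KO and against WT, against 17.2% and 19.2% of all genes. C3ar1 was the 1 of the 6 that lay lower without overlap in KO+DNMT3A against WT, against 7.87% of all genes. It also lay lower in KO against WT, as did 10.5% of all genes.

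Markers of other cell types differed between the same libraries. Of 15 duct marker genes 12 were above 0 in some library, and their summed FPKM was 1673 and 432 in KO+DNMT3A, 577 and 343 in KO, and 2878 and 464 in WT. The duct signal was thus high in KO+DNMT3A replicate 1 and WT replicate 1, and the duct genes Cftr, Onecut1 and Tff2 were listed at 0 throughout. In WT replicate 1 most of the sum came from Spp1, at 1510 FPKM, and Mmp7, at 639 FPKM. Of the 15, 11 passed the filter, and all 11 had a higher mean in KO+DNMT3A than in KO, against 68.2% of all genes. Without overlap 1 was higher, against 17.2%, and the median difference was 1.11, against 0.19 for all genes. Against WT 7 had a higher and 4 a lower mean, where 64.8% of all genes were higher. KO+DNMT3A replicate 2, with a duct sum below those of KO replicate 1 and WT replicate 2, had Saa3 at 199 FPKM, Orm1 at 11.5 FPKM and Lcn2 at 36.4 FPKM. WT replicate 1, with the highest duct sum, had Lcn2 at 20.1 FPKM, C3 at 4.32 FPKM, and Sftpd, Fgg and Orm1 at 0. Macrophage markers, all 12 above 0 in some library, summed to 276 and 163 FPKM in KO+DNMT3A islets, 524 and 333 FPKM in KO islets, and 626 and 519 FPKM in WT islets. The sum was thus lowest in both KO+DNMT3A libraries, and a link to the acute-phase genes was not tested. Of 10 neutrophil markers 7 were listed at 0 throughout, among them Ngp, Camp, Elane and Mpo. S100a9 was 0 and 13.5 FPKM in KO+DNMT3A islets, 1.93 and 0 FPKM in KO islets, and 0 in both WT libraries. Of 11 hepatocyte markers 6 were listed at 0 throughout, including Apoa1, Ahsg and Fabp1, and albumin, Alb, was 0.50 FPKM in KO replicate 2 and 0 elsewhere. Their summed FPKM, 138 and 202 in KO+DNMT3A, 370 and 81.1 in KO, and 23.5 and 319 in WT, came mostly from Ttr, which islet alpha cells also express. Of the 3 hepatocyte markers that passed the filter 2 were higher in KO+DNMT3A than in KO without overlap, against 17.2% of all genes, and 0 passed the test. Apoa2 was 1.35 and 2.33 FPKM in KO+DNMT3A, 0 in both KO libraries, and 0 and 3.34 FPKM in WT islets. Tat was 12.2 and 10.9 FPKM in KO+DNMT3A islets, 10.7 and 2.51 FPKM in KO islets, and 0 and 10.5 FPKM in WT islets. It was thus also higher than in WT, and the margins over KO replicate 1 and WT replicate 2 were small. Of 5 mesothelial markers only Msln had signal, at 40.6 and 1.27 FPKM in KO+DNMT3A islets, 3.65 and 0 FPKM in KO islets, and 0 and 14.6 FPKM in WT islets, and of 6 adipocyte markers Fabp4 and Retn had signal, with sums of 1.57 to 4.24 FPKM. Stroma markers, all 8 with signal, summed to 373 and 182 FPKM in KO+DNMT3A islets, 328 and 404 FPKM in KO islets, and 1106 and 267 FPKM in WT islets. Acinar markers summed to 0 to 15.8 FPKM, with 9 of 12 at 0 throughout. The 10 beta cell markers summed to 124621 and 152260 FPKM in KO+DNMT3A islets, 218236 and 1684 FPKM in KO islets, and 1583 and 166400 FPKM in WT islets. The hormone genes of the other islet cells, Gcg, Sst, Ppy, Pyy and Ghrl, separated WT from the rest: 5 of 5 were higher in KO than in WT without overlap, against 9.36% of all genes, and 4 of 5 in KO+DNMT3A than in WT, against 19.2%. In KO+DNMT3A against KO 0 of 5 were free of overlap. Their summed FPKM was 17462 and 31079 in KO+DNMT3A, 28056 and 16307 in KO, and 3378 and 11822 in WT, and 0 of them passed the limma test in any comparison. The part of these cell types in the acute-phase values was not tested beyond these levels.

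**Figure D5:**
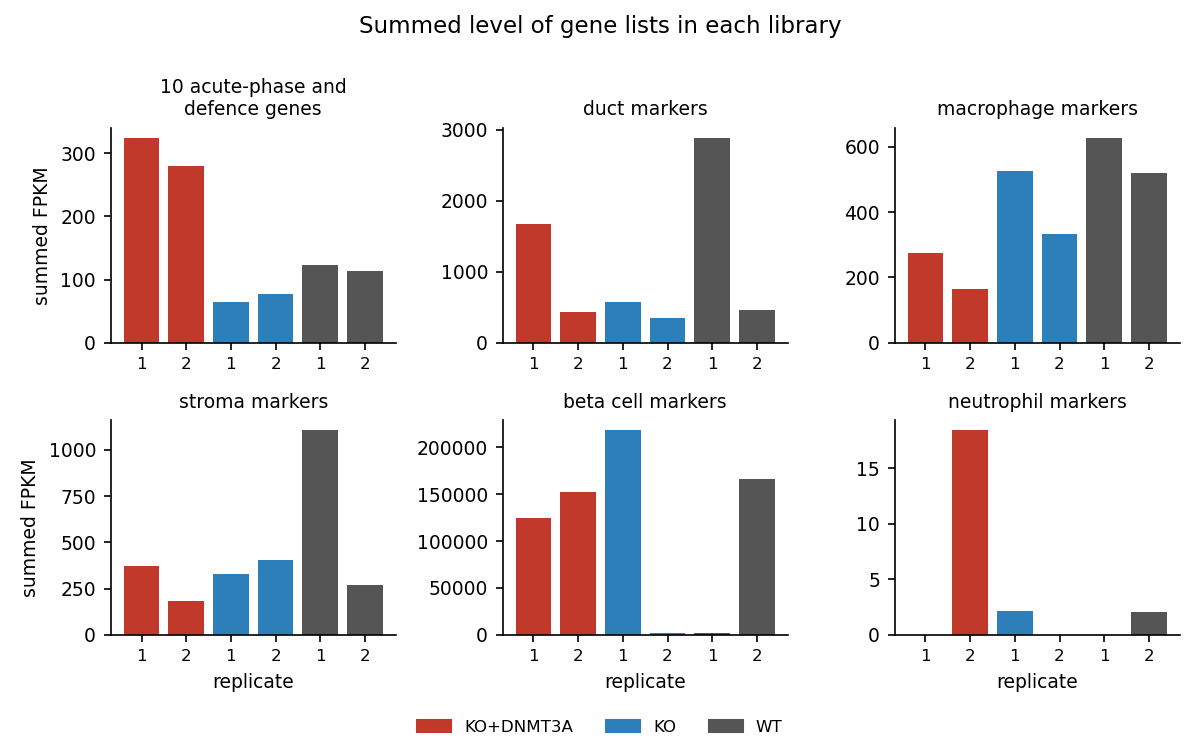
Summed FPKM of the 10 acute-phase and defence genes and of 5 lists of cell type markers in each library (y axis: summed FPKM from 0, a separate scale per list; x axis: replicate, coloured by group). The 10 genes sum to 324 and 279 in KO+DNMT3A, 64.8 and 77.0 in KO, and 123 and 114 in WT. Duct markers are high in 1 KO+DNMT3A and 1 WT library, and macrophage markers are lowest in the KO+DNMT3A libraries.

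The genes were not detected equally. Lcn2, Saa3, C3 and Pigr were above 0 in all 6 libraries, and KO+DNMT3A replicates 1 and 2 had 9 of the 10 genes above 0 each, KO replicates 1 and 2 had 8 and 5, and WT replicates 1 and 2 had 4 and 8. Both libraries with the fewest were the insulin-poor ones, and they were also the 2 of lowest depth. Among themselves the log2 values of Pigr and Lcn2 had a Pearson r of 0.955, those of C3 and Lcn2 of 0.913 and those of Sftpd and Orm1 of 0.890, whereas Fgb and Lcn2 had an r of 0.068 and C3 and Fgb of -0.215. These values, each over 6 libraries that share depth and cell make-up, describe the patterns and carry no test. Among 9180 other genes with a mean of at least 2 FPKM, the patterns closest to Sftpd over the 6 libraries were those of Lrg1 (Pearson r = 0.997), Nf2 (0.991) and Nfkbiz (0.980). Closest to Lcn2 were Zdhhc12 (0.997), Pafah1b3 (0.989) and Nfkb2 (0.988), and closest to Pigr were Ccar2 (0.994), Cgn (0.975) and Tmem127 (0.969). C3 was closest to Mal2 (0.999), Ublcp1 (0.991) and AW549877 (0.988). Orm1 was closest to Platr26 (0.985), Gm28529 (0.981) and Bin3 (0.978), of which Platr26 and Gm28529 were, like Orm1, listed at 0 outside KO+DNMT3A. With 6 libraries a high r is common. At the lower bound of 0.9, 23 of the 9180 genes had a higher r with Orm1, 94 with Lcn2, 127 with Sftpd, 45 with Pigr and 66 with C3.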

How the data were processed

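Poly-A RNA of isolated islets was sequenced in 6 libraries. The authors deposited FPKM per gene for each library, per the file headers. The tools HISAT2 2.0.4, StringTie 1.3.0, edgeR and mm10 are named, per the submitters' processing notes, without role or order. All columns were used. Identifiers were matched to GENCODE M21, and 401 had no symbol. Depth was inferred from genes with 1 annotated transcript, where 84.5% to 91.8% of values of 20 fragments or fewer came out whole to a tolerance of 0.01. The 13233 genes reaching 1 FPKM in 2 or more libraries were fitted as log2(FPKM + 1) with limma 3.58.1 (R 4.3.3; trended, robust, all 6 libraries), two-sided, Benjamini-Hochberg threshold 0.05. The fit was also run on simulated data, at a spread far below that of these libraries and at their own spread. Recovery of changed genes was required only at the smaller spread. Passing that requirement therefore does not tell how large a change the test could find here. The recovery at the libraries' own spread is not given here. A fold on this scale understates the change of low genes. SD is given for n = 2, which limits precision. The genes, lists, motifs and tests were chosen with earlier results of these data known. Genes outside the set are named where groups did not overlap at a mean of at least 2 FPKM, at most 4 per list and comparison by size of difference, plus receptors and cytokines at or near 0 and markers by level; Saa1, Orm2, Orm3 and the genes of the check on copies were named after their values were seen. The closest patterns are the 3 with the highest Pearson r. Other settings tried were filters of 5 FPKM and none, a pseudocount of 0.1, quantile and median scaling, only the groups compared, a replicate block, and libraries left out. Python 3.11.15, pandas 2.3.3 and matplotlib 3.10.9 made tables and figures.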

Additional observations from a re-analysis of the deposited data

How the results depend on the processing

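The count of genes called stayed at 0 in all 3 comparisons under every alternative run. In KO+DNMT3A against KO no gene of the set changed direction under any alternative, and with a pseudocount of 0.1 the differences of Sftpd and Fgg were 4.48 and 4.03. In KO+DNMT3A against WT, Fgg was -0.364 without WT replicate 1, and the same once KO replicate 2 was also removed, and ranged from -0.364 to 3.19 over single libraries left out; C3 ranged from -0.054 to 0.963. In KO against WT the number of genes with a higher mean was 2 of 8 and became 1 of 5 with a filter of 5 FPKM, where fewer genes remain; it ranged from 1 to 4 over single libraries left out. Those ranges were -0.675 to 1.19 for Sftpd, -2.68 to 0.873 for Fgg, and -0.775 to 0.207 for Fga. With both insulin-poor libraries left out, Lcn2 was 0.101, Fgb -0.007 and C3 0.18; the cause was not tested. The replicate number was not shown to pair libraries: same-numbered deviations correlated at 0.318 for KO+DNMT3A and KO, 0.101 for KO+DNMT3A and WT, and -0.269 for KO and WT. The replicate block left the count of calls at 0 in each comparison, and so did a crossed replicate block for KO against WT, chosen after seeing the data. The deposited column names carry other numbers, by which groups share only the number 3, too few for a block. The number 3 stands on KO+DNMT3A replicate 2 and on both insulin-poor libraries, KO replicate 2 and WT replicate 1, which the crossed block pairs. Depth limits low genes, most of all in WT replicate 1.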
